A study of Homo sapiens with 2 samples.

Results

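The numbered ZNF genes were the genes of the RBM47 cluster table whose symbol is ZNF followed by a number and at most 1 further letter, with 1 gene of that form left out. They came to 221 of the 7712 genes of the table and carried 2885 of its 233546 clusters. The choice used symbols alone and no tag count. All 221 genes were matched by gene ID to RefSeq, where 8 of them are transcribed pseudogenes and 6 now carry another symbol (ZNF271, listed today as ZNF271P, is an example of both).

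RBM47 is an RNA-binding protein of the nucleus and cytoplasm, and its contacts with RNA were mapped here by HITS-CLIP, in which ultraviolet light joins protein to RNA, the protein is immunoprecipitated and the attached fragments are sequenced. The cells were MDA231-BrM2a, a non-clonal brain metastatic line derived from the breast cancer line MDA-MB-231, which carried a doxycycline-inducible Flag-tagged wild-type RBM47 and received 1 ng/ml doxycycline over 3 days before irradiation. There was 1 group with 2 replicates, and the labels do not say whether these were separate cultures, so an SD over them may be technical. A tag is 1 unique sequenced fragment, and a cluster is a run of overlapping tags. No library without Flag-RBM47 was analysed, nor was mRNA abundance, so strong binding and an abundant transcript cannot be told apart in any value that follows.

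Most numbered ZNF genes encode proteins with tandem zinc fingers that read DNA, each finger holding a zinc ion between cysteines and histidines. The largest class also carries a KRAB box, which recruits the corepressor TRIM28 and through it histone methylation and heterochromatin, chiefly on retroelements. Many KRAB genes stand in tandem arrays on chromosome 19, where they arose by duplication and still share sequence. Other numbered ZNF genes have nothing to do with KRAB: the symbol also covers spindle, RNA-binding, SUMO-conjugating and actin-binding proteins.

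Since that shared sequence bears on where a tag can be placed, the coding sequences of the 210 members with a reference transcript in GENCODE were searched for stretches of 24 nt that recur among members. The most widespread ones ran across the linker that joins adjacent fingers. Of these, 3 are shown because they are the coding sequence that members share most widely (capitals mark the linker codons for TGEK only):

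stretch A: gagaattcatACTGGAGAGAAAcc

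stretch B: aattcatACTGGAGAGAAAcctta

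stretch C: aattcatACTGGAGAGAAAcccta

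Stretch A was found in 30 of 210 members (14.3%), in 62 copies, against 70 of 18917 coding genes in all (0.37%), 68 of which were numbered ZNF genes. Stretch B was found in 29 members and stretch C in 25. ZNF721 held the most copies of stretch A, 8, followed by ZNF678 with 5 and ZNF595 with 4. Members with a KRAB pattern shared a median of 6.12% of their coding sequence, in stretches of 30 nt, with another coding gene, and members without one shared a median of 0%. In 3'UTRs the medians were 4.83% and 0%. Tags in shared stretches are uncertain as to their gene.

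The table held 999047 tags in replicate 1 and 3489697 in replicate 2, of which the members took 8618 and 28970. Per 1000 tags of the table this was 8.63 in replicate 1 and 8.30 in replicate 2, or 8.46 ± 0.230 (SD, n = 2). The median member cluster of at least 10 tags held 3 tags in replicate 1 and 12 in replicate 2, so that values of single clusters rest on few counts in the smaller library. Over the 221 genes the replicates ranked alike, with a Spearman's rho of 0.963 across genes that share both libraries. Over the 2885 clusters rho was 0.341, and over the 189 clusters of at least 30 tags it was 0.667.

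Gene totals were then formed from clusters of at least 10 tags by the authors' total, and a mark of more than 100 tags was set on them. Both thresholds were taken from the study, but its list of binding partners was not rebuilt. These totals put 3074 of the 7712 genes of the table over the mark, more genes than the study lists by the same thresholds. Of the 221 members, 118 had at least 1 such cluster (53.4%, against 72.6% of all genes of the table), with 25221 tags in 1031 clusters. More than 100 tags were found in 51 members (23.1%), against 39.9% of all genes. The members' shares thus lay below the background of the table by either count. The difference itself was not tested, since genes of the same libraries are not replicates. With the tags of replicate 2 alone 36 members passed the mark, and with those of replicate 1 alone 4 did (ZNF24, ZNF207, ZNF217 and ZNF639), all of them among the 51. Just inside the threshold lay ZNF83, ZNF326 and ZNF286A with 110, 105 and 102 tags. Just outside lay ZNF45, ZNF33A and ZNF702P with 97, 96 and 93. The 103 members without a cluster of at least 10 tags had between 5 and 65 tags, with a median of 10.

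Other families listed by their symbols gave other levels. Solute carrier genes, which encode membrane transporters, passed the mark in 48.7% of 113 genes, and Rab genes, which encode GTPases of vesicle traffic, in 66.7% of 30 genes. Over all deposited clusters the median gene held 36 tags among the members, 96 in the whole table, 139 among the solute carriers and 294.5 among the Rabs. RefSeq holds 508 protein-coding genes with a numbered ZNF symbol, and 213 of these (41.9%) had any cluster, against 36.2% of 20056 protein-coding genes. At least 1 cluster of 10 tags was found in 22.4% of them, against 26.6%. By these counts the family was listed at least as often as other genes but less often with a cluster of 10 tags, and neither difference was tested.

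**Figure D1:**
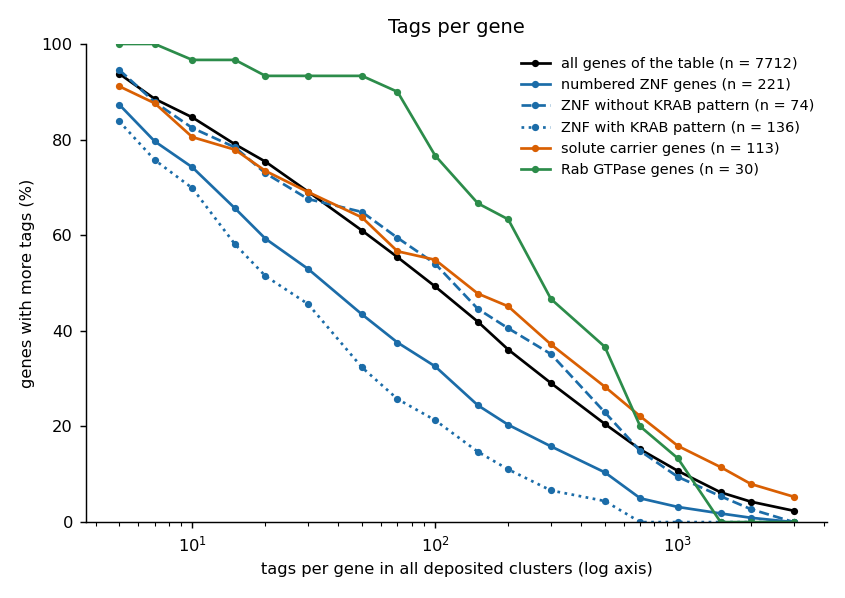
Share of genes (y axis, percent) with more than a given number of tags in all deposited clusters (x axis, log scale), for all genes, the members, members with and without a KRAB pattern, and the solute carrier and Rab genes. At 100 tags the curve of members with the pattern stands at 21.3%, that of members without it at 54.1% and that of all genes at 49.3%.

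Tags were unevenly spread among the members. ZNF24 and ZNF207 together held 4843 tags, 19.2% of the members' tags in clusters of at least 10 tags, and the first 10 genes held 45.7%. Only these and ZNF644 exceeded 1000 tags, 14 members had more than 500 and up to 1000, 34 had more than 100 and up to 500, and 67 had up to 100.

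ZNF24, a SCAN domain zinc finger protein known as a repressor of VEGFA transcription, came first. It held 516 tags in replicate 1 and 2118 in replicate 2, or 516.5 and 606.9 normalised tags, with a mean of 562 ± 64.0 (SD, n = 2). Normalised tags were scaled so that each replicate's column of the table sums to 1000000. Among all 7712 genes it ranked 187 by tags. ZNF207, which encodes the spindle assembly factor BuGZ, followed with 490 and 1751 tags, or 490.5 and 501.8 normalised tags. The replicate ranges of ZNF24 and ZNF207 did not overlap, and with 2 replicates no exact test of 1 gene against another can pass a threshold.

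ZNF644, a partner of the G9a and GLP histone methyltransferases, came next with 244 and 895 tags, 250.4 ± 8.65 normalised tags. It stood apart from both of its neighbours in rank. ZNF292, a large zinc finger protein mutated in a neurodevelopmental disorder, had 185 and 716 tags, 195 ± 14.1 normalised tags. ZNF217, a transcription factor amplified in breast cancer, had 154 and 702 tags, 178 ± 33.2 normalised tags. ZNF697 had 153 and 687 tags, ZNF451, a SUMO ligase, 174 and 644, and ZNF654 181 and 640. From ZNF292 to ZNF654 each gene overlapped the next in rank over the 2 replicates. Within each replicate ZNF292 stood above ZNF217, with 185.2 and 205.2 normalised tags against 154.1 and 201.2. ZNF217 in turn stood above ZNF697, which had 153.1 and 196.9. The order of ZNF697, ZNF451 and ZNF654 changed between the replicates. None of these differences was tested, and with 2 replicates the order is not resolved.

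Among the 25 members with the most tags, 14 of 24 neighbouring pairs overlapped over the replicates and 10 did not. Replicate 2 gave the higher normalised value in 22 of the 25 genes. The exceptions, chosen after their values were seen, were ZNF438, ZNF639 and ZNF664. ZNF664 had 95.1 normalised tags in replicate 1 and 82.8 in replicate 2, and ZNF438 had 170.2 and 159. The list was drawn up on the authors' total, to which replicate 2 contributes most tags.

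**Figure D2:**
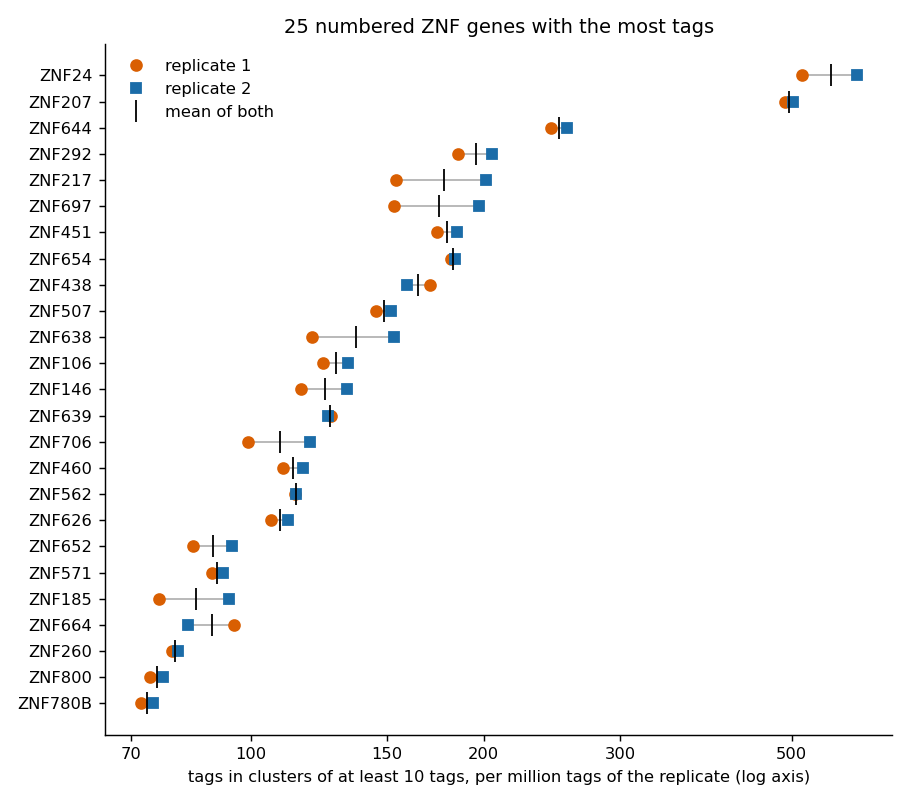
Tags in clusters of at least 10 tags, per 1000000 tags of the replicate (x axis, log scale), for the 25 members with the most tags. Circles show replicate 1, squares replicate 2 and ticks their mean. ZNF24 and ZNF207 stand between 490.5 and 606.9, ZNF644 between 244 and 257, and the other 22 genes between 72.1 and 205.

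Levels of different genes were compared per length of the reference transcript, in tags per kb, with every cluster that carried an intron label left out. ZNF24 again came first with 411 tags per kb, 81.0 normalised tags per kb in replicate 1 and 95.5 in replicate 2. ZNF706, a short protein with 1 finger, stood at rank 15 by tags but next to ZNF24 by this measure, with 192 tags per kb, 37.1 normalised tags per kb in replicate 1 and 44.6 in replicate 2. In each replicate ZNF24 thus stood above ZNF706 by more than the spread between the replicates of either gene. ZNF146, a protein made almost wholly of fingers, followed with 172 per kb, and ZNF644 with 156.

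The place of some genes depended on how intron labels were treated. ZNF451 had 78.8 tags per kb at rank 15, and 156 at rank 4 when clusters with an intron label beside another one were kept. ZNF207 had 104 tags per kb at rank 11, over a transcript of 13740 nt, of which 12129 nt are 3'UTR. When its intron clusters that lie between 3'UTR clusters were kept, it had 159 per kb at rank 4. ZNF24 had 411 tags per kb in either case. The authors' labels and the reference transcript may also refer to different isoforms, so these densities are approximate.

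ZNF24 and ZNF207 also held the largest single clusters. The largest, in the 3'UTR of ZNF207 (chr17:27730637-27731597, plus strand), held 125 tags in replicate 1 and 431 in replicate 2. The next, in the 3'UTR of ZNF24 (chr18:31169199-31169984, minus strand), held 108 and 429, and another of ZNF24 (chr18:31170635-31171163) held 101 and 388. The coordinates are those of the table, whose build is hg18 by the submitters' processing notes. Of the 21 member clusters with at least 100 tags, 19 carried the 3'UTR label alone (90.5%, Wilson 95% interval 71.1 to 97.4%), against 65.7% of all clusters with a gene symbol at that minimum, and they lay in 12 genes. None carried the intron or the coding (CDS) label alone. The other 2 carried more than 1 label (9.52%, against 16.6% of all clusters with a gene symbol at that minimum).

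The split of each cluster's tags between the replicates was compared with the replicate 1 share of the whole table, 22.3%, by a two-sided exact binomial test with Benjamini-Hochberg adjustment over all clusters. Of the 2885 member clusters 0 passed, against 26 of 233546 in the table (0.0111%). The median member cluster held 2 tags in replicate 1 and 6 in replicate 2, and clusters of so few tags can hardly pass. The count of 0 is therefore no measure of how well the replicates agree in them. An unadjusted p under 0.05 was found in 84 member clusters (2.91%) and in 3.04% of all clusters. The member cluster with the smallest p by this exact test lay in the 3'UTR of ZNF24 (chr18:31169993-31170419), with 51 tags in replicate 1 and 310 in replicate 2. Its replicate 1 share was 14.1% (Wilson 95% interval 10.9 to 18.1%), with an exact p of 0.00014 and an adjusted p of 0.49.

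The study asked where along its target RNAs RBM47 binds. In the 1031 member clusters of at least 10 tags, the 3'UTR label alone was found in 432 (41.9%, Wilson 95% interval 38.9 to 44.9%), against 35.1% of all clusters with a gene symbol. The intron label alone was found in 323 (31.3%, 28.6 to 34.2%), against 38.5%. The CDS label alone was found in 154 (14.9%, 12.9 to 17.2%), against 15.9%. Another 98 clusters carried more than 1 label, and 71 of these were called both 3'UTR and intron. These intervals treat clusters as independent and cover counting error only.

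By tags, the 3'UTR share was 57.0% in replicate 1 and 58.6% in replicate 2, 57.8 ± 1.13% (SD, n = 2), against 47.1 ± 0.358% for all genes. The intron share was 19.9 ± 0.371% against 18.9 ± 0.539%, and the CDS share 11.7 ± 0.555% against 10.1 ± 0.178%. The gap in the 3'UTR share between members and all genes was larger than the spread between replicates, and no test was made of it. These shares count single labels alone. By the authors' total, tags with more than 1 label made up 8.56% in members and 16.9% over all clusters with a gene symbol. Unclassified exons made up 1.31% and 6.65%, so the gap also depends on tags outside the 3 regions compared. ZNF24 alone gave 2306 of the 14718 3'UTR tags.

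The share depended on the tag minimum. With all deposited clusters counted, 48.5% of member clusters were intronic and 27.9% lay in 3'UTRs. At 30 tags the 3'UTR share was 67.7% and at 50 tags 82.1%, while the intron share was 10.6% and 4.76%. The median 3'UTR cluster of at least 10 tags held 19 tags, the median CDS cluster 15 and the median intron cluster 12. When at least 10 tags were required of 1 replicate alone, the 3'UTR share was 75.7% in replicate 1 and 49.1% in replicate 2. The same shift with the tag minimum was seen over all genes, where the 3'UTR share rose from 22.7% with all clusters to 65.7% at 100 tags.

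By gene, 84 of the 118 members had a 3'UTR cluster (71.2%, against 81.2% of all genes with a cluster of at least 10 tags). An intron cluster was found in 47 (39.8% against 35%) and a CDS cluster in 31 (26.3% against 46.1%), and 9 members had all of these. By gene the 3'UTR and CDS shares of the members thus lay below those of the table, while by cluster the 3'UTR share lay above it and the CDS share near it. The 3'UTR was the only labelled region in 35 members and the intron in 16. More than 50% of a gene's tags lay in 3'UTRs in 70 members, in introns in 25 and in the CDS in 4. Of the 51 members with more than 100 tags, 31 had more than 50% of theirs in the 3'UTR and 9 in introns.

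**Figure D3:**
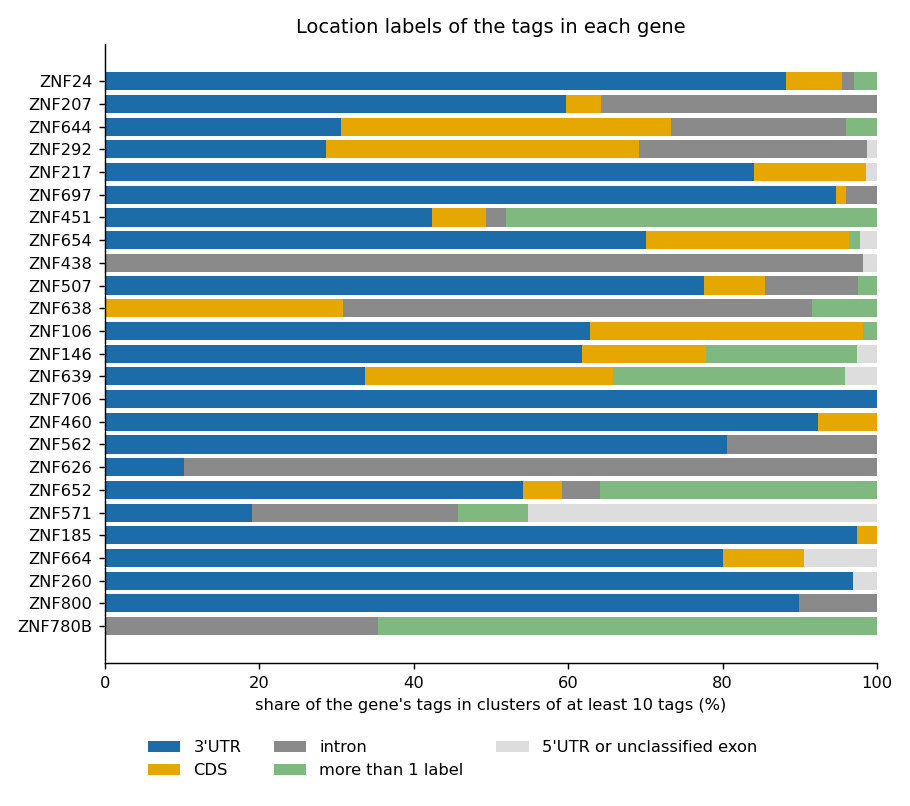
Share of each gene's tags (x axis, percent, clusters of at least 10 tags, both replicates by the authors' total) by location label, for the 25 members with the most tags. In 16 of them the 3'UTR holds more than 50%. ZNF438, ZNF626 and ZNF638 are mostly intronic, and ZNF644 and ZNF292 carry most CDS tags.

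The 3'UTR genes were headed by ZNF24. Its 20 clusters of at least 10 tags in the 3'UTR held 452 tags in replicate 1 and 1869 in replicate 2, 88.3% of the gene's tags, and covered 4050 of the 4876 nt between the first and the last of them (83.1%). The deepest of them lay in the first part of the 3'UTR. ZNF217 had 84.1% of its tags in 13 3'UTR clusters that covered 1966 of 2166 nt. ZNF697 had 94.8% in 17 clusters over 2705 of 2939 nt, and ZNF460, a KRAB gene of chromosome 19, had 474 of its 513 tags in 9 clusters over 1601 of 1754 nt.

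All 514 tags of ZNF706 were in its 3'UTR, in 7 clusters, the largest of which held 42 tags in replicate 1 and 240 in replicate 2. ZNF185, a LIM domain protein that binds actin, had 385 of 395 tags in the 3'UTR, and ZNF260 had 345 of 356. ZNF664 held 306 3'UTR tags in only 4 clusters, and 1 of these had 224 (chr12:123065254-123065927). ZNF207 had 1333 3'UTR tags, 59.8% of its total, with 297.3 and 296.9 normalised tags in the replicates.

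Intronic tags had a few main carriers. By label ZNF207 had the most, 798 in 31 clusters, with 172.2 normalised tags in replicate 1 and 182.0 in replicate 2. No intron cluster of it held more than 70 tags. Of the 31, however, 28 with 749 tags lay between clusters labelled 3'UTR, which span 10854 nt where the reference transcript has a 3'UTR of 12129 nt, so the intron label of these tags is uncertain. Intron clusters between 3'UTR clusters were found in 4 members, with 1046 of the 4971 intron tags in all, and ZNF292 had 263 of them. The 3'UTR clusters of ZNF292 span 40316 nt, however, where its reference 3'UTR has 4145 nt. Those of ZNF451 span 67658 nt against 1839 nt. In these genes the position alone therefore does not put the intron label in doubt. ZNF438 had 703 intron tags in 49 clusters, 98.2% of its total, spread over 135751 nt, with 165 and 157 normalised tags. It was also the member with the most clusters, 188 over all deposited ones. No 3'UTR or CDS cluster of at least 10 tags was listed for it. ZNF638, a nucleic-acid-binding protein that silences unintegrated retroviral DNA, had 396 intron tags in 27 clusters (60.7%) and 201 CDS tags, and none in the 3'UTR.

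ZNF626, a KRAB gene of chromosome 19, had 441 of its 491 tags in 22 intron clusters. In transcript direction its 3 clusters with the 3'UTR label, of 13, 15 and 22 tags, came before every intron cluster. Labels were given by the authors, and which transcript each label refers to is not recorded in the table. ZNF521, a regulator of early haematopoietic and neural cells, had all of its 176 tags in introns, and ZNF595, ZNF83 and ZNF91 were also chiefly intronic.

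Tags in coding sequence were largest in ZNF644, with 477 in 22 CDS clusters, 109.1 normalised tags in replicate 1 and 109.2 in replicate 2. They made up 42.7% of its tags and covered 2576 of 3786 nt. ZNF292 had 363 CDS tags in 19 clusters, ZNF654 211, ZNF106, a protein needed for the neuromuscular system, 205, ZNF638 201, ZNF24 188 and ZNF639 181. The CDS held most of the tags in ZNF462, ZNF227, ZNF841 and ZNF699 (named after their values were seen). Of these ZNF462, a large finger protein of development, had 100 of its 125 tags in 8 CDS clusters. ZNF841 and ZNF699 each had only 1 cluster of at least 10 tags, of 12 and 11 tags, so their share rests on few counts.

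**Figure D4:**
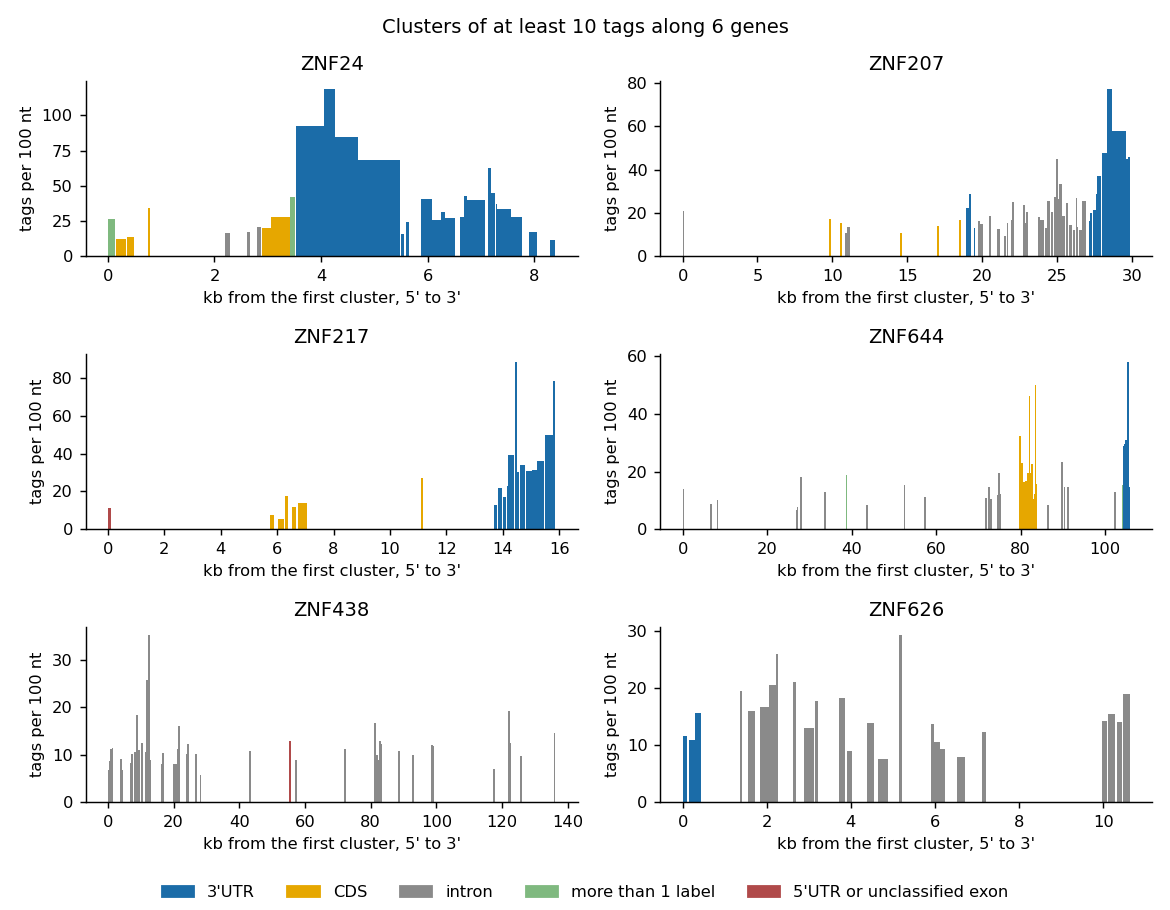
Clusters of at least 10 tags along 6 members, as tags per 100 nt of cluster (y axis) against the distance from the first cluster in kb in transcript direction (x axis), coloured by location label. The axes differ between panels. ZNF24 and ZNF217 show 3'UTR clusters side by side, ZNF644 a dense CDS block, and ZNF438 and ZNF626 mostly clusters labelled intron, with gaps between them.

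To follow the classes of the family, the KRAB box and the fingers were searched for as patterns in the reference proteins. A KRAB pattern was found in 136 members and none in 74, and 11 members had no reference transcript. Of the KRAB members, 64 (47.1%) had a cluster of at least 10 tags and 18 (13.2%) exceeded 100 tags. Of the members without KRAB, 66.2% had such a cluster and 32 (43.2%) exceeded 100 tags. These shares are to be read against the 72.6% and 39.9% of all genes, and they count only genes already in the table. Of 308 RefSeq genes of the family with the pattern, 44.8% were listed and 21.1% had a cluster of at least 10 tags. Of 195 without it, 37.4% were listed and 25.1% had such a cluster. Over all protein-coding genes the shares were 36.2% and 26.6%. Per RefSeq gene the classes thus lay closer together by the share with a cluster of at least 10 tags. By the mark of more than 100 tags they did not: 18 members passed it for 308 RefSeq genes with the pattern, and 32 for 195 without it. The median over all deposited clusters was 21.5 tags with KRAB and 128.5 without. Among the 25 members with most tags, 5 had the pattern: ZNF460, ZNF562, ZNF626, ZNF571 and ZNF780B.

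Per length of annotated 3'UTR, KRAB members had 1.61 ± 0.0229 normalised tags per kb and the others 11.6 ± 0.970 (SD, n = 2). In the CDS the values were 0.211 ± 0.0165 and 3.16 ± 0.0596. The replicate values did not overlap in either region. With tags of all labels, introns included, over the length of the whole reference transcript, which has no introns, the values were 1.91 ± 0.0537 and 9.75 ± 0.562. Without ZNF24 and ZNF207 the members without KRAB still had 8.68 in the 3'UTR and 2.86 in the CDS. The CDS share of the tags was 4.05 ± 0.430% in KRAB members and 13.9 ± 0.541% in the others, and the intron share 30.4 ± 0.986% and 17.0 ± 0.721%. The share of coding sequence held in common with other genes moved with these classes, as given above, and its part in the difference was not tested.

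Within the KRAB members with a cluster of at least 10 tags, the 9 with a CDS cluster shared a median of 6.26% of their coding sequence with other genes and the 55 without one 11.6%. Over all 210 members with a transcript, the shared percentage and the CDS tags had a rho of -0.292 across genes, which share both libraries.

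Chromosome 19 carried 103 of the 221 members and 26.3% of the tags, counted from clusters of at least 10 tags. More than 100 tags were found in 18 of them (17.5%) and in 33 of the 118 members of other chromosomes (28%), against 39.9% of all genes of the table. The KRAB members of chromosome 19 had 2.17 ± 0.0478 3'UTR normalised tags per kb, and the 47 KRAB members elsewhere had 0.655 ± 0.0193. In the CDS the values were 0.202 ± 0.00460 and 0.231 ± 0.0409, within the spread between replicates. The 8 members of chromosome 19 without a KRAB pattern included 5 with more than 100 tags, ZNF507, ZNF146 and ZNF260 among them. RefSeq holds 39 family genes of this kind on chromosome 19, of which 20.5% were listed and 17.9% had a cluster of at least 10 tags. Of those with the pattern on chromosome 19, 23% had such a cluster.

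The number of fingers said little about the tags of a gene. Members over 100 tags had a median of 9 finger patterns and those at or under it 11, and rho between fingers and tags was -0.102 over 210 genes. ZNF207 had 2, ZNF24 had 4 and ZNF462 had 34. The median 3'UTR was longer in members over 100 tags, at 2942 nt against 2106 nt, and its uridine content was 33.3% against 31.0%. Over all listed genes that content was 32.5%, and over all genes with more than 100 tags 33.8%. The length of the 3'UTR and the tags in it had a rho of 0.229 across members.

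**Figure D5:**
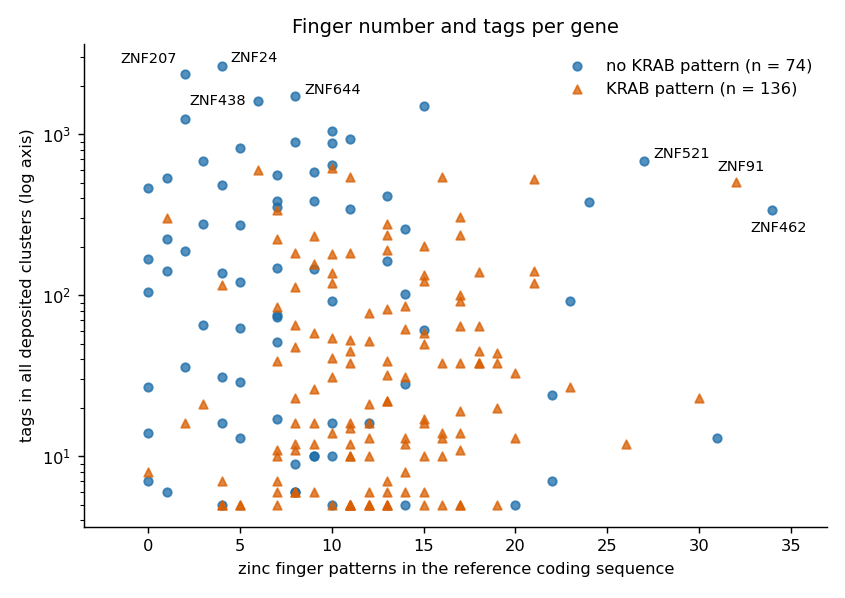
Tags per member in all deposited clusters (y axis, log scale) against the zinc finger patterns of its reference coding sequence (x axis), for 74 members without and 136 with a KRAB pattern. Genes over 1000 tags have no KRAB pattern and between 2 and 15 finger patterns.

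Members were also counted by role, from short lists drawn up with earlier results known, whose counts are to be read against the 39.9% of all genes of the table with more than 100 tags. Of 28 SCAN domain genes with a numbered ZNF symbol, 6 were in the table and ZNF24 alone exceeded 100 tags. ZNF215 followed with 35, and ZNF202, ZNF274, ZNF445 and ZNF449 had no cluster of at least 10 tags. Of 19 gene regulators without a KRAB box, 13 were in the table and 6 of these exceeded 100 tags, a share near that of all genes: ZNF292, ZNF217, ZNF148, ZNF281, ZNF521 and ZNF462. ZNF148, which binds GC-rich promoters, had 74 tags in replicate 1 and 256 in replicate 2, and its relative ZNF281 had 56 and 183. ZNF143, an activator bound at many promoters, had 9 and 48.

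Of 10 RNA, ribosome and spindle proteins, 4 were in the table and each exceeded 100 tags. They were ZNF207, ZNF638, ZNF706 and ZNF326, a subunit of the DBIRD complex that links transcript elongation to splicing, with 23 and 82 tags. Of 12 ubiquitin, SUMO and cytoskeleton proteins, 7 were in the table. Among these ZNF451 and ZNF185 exceeded the mark, ZNF330 and ZNF280D had 77 and 68 tags, and ZNF259, ZNF277 and ZNF280C had no cluster of at least 10 tags.

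Of a list of 30 KRAB genes of the chromosome 19 arrays, 8 were in the table, and among these ZNF91, which silences SVA retroelements, alone had a cluster of at least 10 tags. The list does not stand for its class, since 46 of all 89 KRAB members on chromosome 19 (51.7%) had such a cluster, against 72.6% of all genes. It had 56 tags in replicate 1 and 252 in replicate 2, and 269 of its 304 tags were in introns. ZNF43, ZNF90, ZNF253, ZNF254, ZNF682, ZNF714 and ZNF738 had between 5 and 39 tags in all deposited clusters.

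The corepressor that KRAB proteins recruit was followed as a list of non-members. Of 16 symbols, 2 of which name the same gene, 12 were in the table and 6 exceeded 100 tags, against 39.9% of all genes. CBX5, which encodes the heterochromatin protein HP1 alpha, had 340 and 1383 tags, with 1638 of its 1697 in the 3'UTR. FAM208A, the HUSH subunit TASOR, had 610 tags, CBX3 296 and HDAC2 214. No cluster was listed for TRIM28 or SETDB1, which for a table of clusters with at least 5 tags in all and 1 in each replicate is not a count of 0.

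A few numbered ZNF genes were named in the study's own splicing and expression lists, and their binding is given whatever its level. ZNF514 had 125 tags in 8 clusters, 39 in replicate 1 and 87 in replicate 2, with 115 in introns. ZNF195 had 156 tags in 22 deposited clusters, 45 and 111 in the replicates, but only 14 in a cluster of at least 10 tags. ZNF252 did not occur as a symbol in the table, which lists ZNF252P, with 36 tags in 3 such clusters. ZNF75A had 2 deposited clusters with 13 tags. ZNF643 did not occur as a symbol in the table.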

How the data were processed

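The authors collapsed HITS-CLIP reads to unique tags, joined them into clusters on the Galaxy platform and gave each cluster a gene and location label. The authors deposited these as raw counts of tags for each cluster, by replicate and in total. The submitters' processing notes name Novoalign and hg18, with no version. Every member cluster had at least 5 tags in total and 1 in each replicate, as read from the values, so the column sums are not library depths. In 364 member clusters (12.6%) the replicates summed to more than the authors' total, by 493 tags in all. The authors' total served for thresholds and ranks, and the replicate columns for values with an SD. All columns of tags were mapped, with 0 left over.

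Clusters of at least 10 tags were summed by gene. A cluster with 1 label counted in that class. The split between replicates was tested with an exact binomial test (scipy 1.17.1, pandas 2.3.3, python 3.11.15). It was tested on simulated data: among 233546 clusters, 95% of 200 clusters changed 4-fold in odds were recovered and 2 unchanged ones were called. The tag counts of the simulated clusters are not given here, so the 95% cannot be carried over to member clusters, most of which held few tags. Lengths, fingers, KRAB patterns (in the first 200 residues) and shared stretches were computed on GENCODE release 44 transcripts on GRCh37. Of 219 members found there the largest cluster fell within the gene for only 8, so reference coordinates were not used. Table coordinates are as deposited, and whether they count from 0 or 1 is unknown. Intervals and SDs cover counting error and the spread between libraries.

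Named genes were the 25 members with the most tags, those in the study's lists, the role lists, the gene with the most clusters and the one with most intron tags, and the corepressor genes. Members and lists were chosen with earlier results of these data known. One symbol that fits the pattern was left out and is not reported here.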

Additional observations from a re-analysis of the deposited data

How the results depend on the processing

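The count of members above 100 tags, 51, was 72 with all deposited clusters, 28 at a minimum of 30 tags, 49 without ZNF24 and ZNF207 (an alternative chosen after seeing the data), and 4 to 36 when either replicate was left out, the lower count being that of replicate 1 alone. The members' tags per 1000 tags of the table, 8.46, were 7.11 at 10 tags, 5.18 at 30 tags, 7.36 without ZNF24 and ZNF207, and 8.30 to 8.63 in single replicates. The 3'UTR share of clusters, 41.9%, was 27.9% with all deposited clusters, 67.7% at 30 tags, 50.5% when every label that includes the region was counted, 58.4% weighted by tags, and 49.1 to 75.7% in single replicates. The intron share, 31.3%, was under the same settings 48.5%, 10.6%, 38.2%, 19.7%, and 6.80 to 23.7%. The difference of the 3'UTR and intron shares, 10.6 percentage points, turned to -20.6 with all deposited clusters, and was 57.1 at 30 tags, 38.7 weighted by tags and 25.4 to 68.9 in single replicates. The median tags per member with a cluster were 71.5, and 36 with all deposited clusters, 156 at 30 tags and 42.5 to 68.5 in single replicates, where fewer tags were counted. Spearman's rho between replicates, 0.963, was 0.960 at 10 tags and 0.972 over the 44 members left at 30 tags. The exact binomial test called 0 member clusters under each of its 2 other settings, at another scaling and over clusters of at least 10 tags alone. The tags per kb of ZNF24, ZNF207 and ZNF451 were also recomputed with intron labels treated otherwise, as given with those genes, which was chosen after seeing the data. In all, 46 alternatives were run and 1 reversed a direction. No paired analysis was possible because both replicates belong to 1 group. Replicate 1 limits the precision, with a median of 3 tags in member clusters of at least 10 tags.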
